A study of Rattus norvegicus with 2 samples.

Results

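The transcripts described here have no gene name. They are read by 60-base probes of a rat gene expression array on which the name field repeats the probe's own identifier and a genome position is listed. Of 30367 probes other than controls on the array, 4175 carried no gene name, and 3980 of these had a position on the rn4 rat assembly. The members were chosen by detection, which is itself a measured value: they are the 2620 of the 3980 whose spots the scanner software marked as well above background on both arrays. In 3 of the 2620 the spot was marked as an outlier on 1 array, which left 2617 with a value.

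The RNA came from the hypothalamic paraventricular nucleus of male Sprague Dawley rats at 12 weeks of age. In the control group the mothers had received vehicle only. In the other group they had received dexamethasone, a synthetic glucocorticoid, in the last trimester of pregnancy, at 200 µg/kg per the series' text. There was 1 array per group, and the labels do not say how many animals it stood for. The treatment could therefore not be tested, and every difference is one between these 2 arrays. In RNA of a whole tissue sample, fewer cells of a type and less RNA per cell cannot be told apart.

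Array designers place such probes on predicted transcripts, expressed sequence tags and stretches of genome for which no gene model was available. They can read long noncoding RNAs, untranslated ends of known genes whose models stop too early, copies of genes elsewhere in the genome, or repeats carried in many transcripts. The paraventricular nucleus governs pituitary hormone release and sympathetic outflow, and glucocorticoids act on it by feedback. A probe has the sense of the transcript it captures, so its strand is that of the transcript. Among named probes whose gene RefSeq places on the same chromosome, 96.2% lay on the gene's strand.

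The members' sequences differed most plainly in their purines, the bases A and G. The first set shows 5 of the members with the largest deficit in the dexamethasone array among members of at least median signal. Capitals mark the longest unbroken run of A and G, all sequences read 5′ to 3′, and positions are those of rn4.
A_64_P159685, chr1:262911791-262911850, forward strand: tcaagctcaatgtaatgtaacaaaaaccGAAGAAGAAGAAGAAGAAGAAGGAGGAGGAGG
A_64_P084218, chrUn:72568455-72568514, reverse strand: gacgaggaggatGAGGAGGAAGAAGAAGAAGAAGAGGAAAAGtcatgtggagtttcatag
A_64_P047264, chr6:115683421-115683483, forward strand: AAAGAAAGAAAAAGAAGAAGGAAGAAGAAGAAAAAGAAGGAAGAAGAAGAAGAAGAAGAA
A_64_P074194, chr8:33238684-33238743, reverse strand: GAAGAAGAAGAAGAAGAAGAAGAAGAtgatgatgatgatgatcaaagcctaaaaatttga
A_64_P162865, chr13:92333106-92333165, forward strand: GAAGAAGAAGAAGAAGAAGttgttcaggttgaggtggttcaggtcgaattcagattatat

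The second set shows 3 members that also hold the letters GAAGAAGAA but did not share the deficit, with capitals used the same way.
A_64_P162356, chr13:26296491-26296550, reverse strand: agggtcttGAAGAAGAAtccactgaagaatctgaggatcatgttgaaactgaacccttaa
A_64_P146914, chr2:223130538-223130597, reverse strand: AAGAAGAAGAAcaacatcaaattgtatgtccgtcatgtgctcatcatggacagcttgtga
A_64_P155290, chr20:47476303-47476362, reverse strand: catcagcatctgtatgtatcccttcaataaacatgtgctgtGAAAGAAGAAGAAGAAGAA

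The third set shows members at the other extremes, in lower case because no run is singled out: the member with the largest excess in the dexamethasone array, the largest excess among members of at least median signal, and the largest deficit of all.
A_64_P121361, chr16:26691036-26691095, forward strand: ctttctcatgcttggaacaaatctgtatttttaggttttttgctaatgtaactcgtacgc
A_64_P126395, chr4:131051554-131051613, reverse strand: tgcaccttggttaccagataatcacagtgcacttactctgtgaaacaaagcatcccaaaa
A_64_P111725, chrUn:66916281-66916340, forward strand: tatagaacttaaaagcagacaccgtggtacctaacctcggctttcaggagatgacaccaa

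Unnamed transcripts were detected less often than named ones on both arrays. Of the 3980 positioned probes, 70.3% passed the background limit on the control array and 67.3% on the dexamethasone array. Of 26192 named probes 21229 (81.1%) and 20961 did so. In the unnamed set 179 probes passed only on the control array, 60 only on the other and 1121 on neither, leaving out the 3 members with an outlier-marked spot. The mark is set spot by spot, so signals on either side of it overlap. On the control array the dimmest positioned unnamed probe that passed had a signal of 6.61, and the brightest that did not pass 8.48. On the dexamethasone array, by its own mark, these were 7.31 and 10.5. The median member signal was 332 for control and 328 for dexamethasone, below the 441 and 465 of named probes. Throughout, a pair of signals gives the control value first.

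Most unnamed transcripts had nearly the same level on both arrays, and those that differed were almost all lower after prenatal dexamethasone. Differences are log2 signals of the dexamethasone array minus the control array, after each array's 75th percentile was subtracted. Counted by size alone, 13 members were 2-fold or more above their control signal and 158 were 2-fold or more below it. That is 0.497% and 6.04% of the members, against 2.67% higher and 3.18% lower among all 23322 probes measured on both arrays. Either way, the 171 members compare with 5.84% of all probes. Of the members past 2-fold 92.4% were lower, and of the named probes past 2-fold (608 higher, 574 lower) 48.6% were. With normexp background correction, which damps differences of dim probes, 3 members were higher and 65 lower, and of named probes 340 and 213.

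The bulk of the members did not share that shift. Their median difference was 0.04, with quartiles at -0.19 and 0.22, and that of named probes was 0.01. At 4-fold, 1 member was higher and 36 were lower, against 0.63% and 0.407% of all probes (1.04% either way). At 1.5-fold, 72 were higher and 280 lower, against 6.23% and 8.55% (14.8% either way). Just inside the lower 2-fold limit A_64_P068766 was at -1.01, and just outside it A_64_P082164 was at -0.99. Values of the arrays correlated at 0.992 across members, which share both arrays and are not replicates.

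Lower members were found at every signal level, and higher ones only below a mean log2 signal of 9. Below 5, 46 of 541 members were lower and 5 higher, and between 5 and 7, 52 of 485 were lower and 5 higher. Between 7 and 9, 22 of 413 were lower and 3 higher. Between 9 and 11, 15 of 315 were lower (4.76%), and from 11 upward 23 of 863 (2.67%), with none higher in either band. Of 2741 named probes below 5, 156 were lower and 100 higher. Of 3806 between 5 and 7, 177 were lower and 164 higher, and of 4146 between 7 and 9, 127 and 123. Of 4332 named probes between 9 and 11, 68 were lower (1.57%) and 132 higher. From 11 upward 46 of 5577 were lower (0.82%) and 89 higher. The scanner software's own error of a single bright spot corresponds to about 0.20 in a log2 difference. Over 1315 probes spotted 10 times, the difference had a median SD of 0.041 between spots, and 0.21 over the 110 of these with a mean log2 signal below 6. These errors cover measurement on the array and not animals.

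Purine repeats were frequent among the bright members that were lower. Searched on the probe's own strand, the letters GAAGAAGAA occurred in 49 members (1.87%), 75 named probes (0.364%) and 0.481% of all probes on the array. The complement TTCTTCTTC occurred in 0 members and 22 named probes. The repeat was chosen after the values had been seen, so what follows is a description with no test.

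Members with GAAGAAGAA had a median difference of -1.92, or 3.79-fold lower, with a range of -2.43 to 0.45. Of the 49, 33 were at least 2-fold lower, none was 2-fold higher and 43 were below 0. Their median signal was 2810 for control and 1368 for dexamethasone, above the members' median on both arrays. Across 8 scalings and background corrections, the main one included, the median stayed between -1.92 and -1.37, and between 29 and 33 of them were 2-fold lower.

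A_64_P159685, shown first above, had a control signal of 8875 and read 1736 after dexamethasone. That is 5.39-fold lower (difference -2.43, software error 0.20). A_64_P047264, made of A and G from end to end, read 8385 and 1717 (-2.36). A_64_P074194, whose repeat runs into GAT units, read 35993 and 8117 (-2.22).

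A_64_P162865 holds only 19 purines in a row, followed by mixed sequence, and read 19588 and 4438 (-2.22). A_64_P084218 read 6715 and 1368 (-2.37). A_64_P007313, A_64_P045760 and A_64_P001647 had GAAGAAGAA and differences of -2.30, -2.21 and -2.18. A_64_P084218 and A_64_P007313, both on Un, end in the same stretch of bases. Beside A_64_P045760, at chr7:4660456-4660515, lay A_64_P045755, at chr7:4660386-4660445, which also held GAAGAAGAA (-1.51). Members with the repeat are therefore not all separate cases.

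Some members with the same letters were not lower. A_64_P162356, with GAAGAAGAA once in otherwise mixed sequence, read 22093 and 29798 (0.36). A_64_P146914, with an 11-base run, read 5223 and 6718 (0.29). A_64_P155290, with a 19-base run at its 3′ end, read 3695 and 3756 (-0.05). Within the 49 members with GAAGAAGAA, run length alone did not sort them: of 20 with a run of at least 30 purines 15 were 2-fold lower, and of 29 with a shorter run 18 were. Over all members the share did vary with the longest run. With a run under 10 purines 94 of 2280 were lower, from 20 to under 30 purines 14 of 18, and from 30 upward 24 of 39. Among named probes with these run lengths 496 of 18584, 4 of 34 and 9 of 20 were lower.

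In bands of purine share, the median difference lay clearly below 0 only from 70% upward, though members below 70% could be lower too. Members with under 40% A and G had a median of -0.01, and those between 50% and 60% had 0.07. Between 60% and 70% the median was 0.06, with 27 of 496 lower, among them A_64_P162865 (66.7%, -2.22). In the 64 members between 70% and 80% the median was -0.20 with 14 lower, in the 29 between 80% and 90% it was -1.72 with 25 lower, and in the 26 at 90% or more it was -1.29 with 15 lower. In all, 119 members had at least 70% A and G, with a median of -0.85, and 54 of them were among the 158 lower members. Without those 119 members, an alternative chosen after the data were seen, 13 members were higher and 104 lower. Without the 49 members with GAAGAAGAA the counts were 13 and 125.

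Named probes with the same letters or a like purine share had smaller median differences. The 75 named probes with GAAGAAGAA had a median of -0.22, and 19 were 2-fold lower and 2 higher. Most of the 75 held shorter runs: 63 had a longest run under 30 purines, with a median of -0.10 and 13 lower. The 12 with a run of at least 30 had a median of -0.96 and 6 lower. Members with GAAGAAGAA had medians of -1.88 for runs under 30 and -1.95 for longer ones. Between 60% and 70% A and G 109 of 3317 named probes were lower, with a median of 0.01. Between 70% and 80% 16 of 320 were lower, with a median of 0.04, and between 80% and 90% 1 of 7, with a median of -0.41. Named probes of at least 90% A and G numbered 19, with a median of -0.88 and 9 lower. Flywch1, a zinc finger gene, had a named probe with GAAGAAGAA that read 13035 and 2978 (-2.21), and the keratin gene Krt80 had one that read 336 and 98.7 (-1.84). A probe of Tcf7l2, a Wnt pathway transcription factor abundant in thalamus, held the repeat and read 11258 and 5678 (-1.06). Over the 2 measured probes of Tcf7l2, of which only this one held the repeat, the gene was at -0.91. These 3 genes were chosen after their values were seen.

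Other repeats went with smaller or opposite differences. GAGGAGGAG occurred in 41 members with a median of -0.85 and 16 lower, and in 48 named probes with a median of -0.41. Across the 8 settings between 9 and 16 of these members were 2-fold lower. CAGCAGCAG occurred in 25 members (median -0.27, 2 lower) and AACAACAAC in 16 (median -0.37, 3 lower). The pyrimidine repeat CTCTCTCTC occurred in 3 members with differences of 0.29, 0.78 and 1.16. The first and last of these were dim. A_64_P151164 read 8.69 and 11.2 (0.29, software error 0.42), and A_64_P007294 read 13.3 and 31.2 (1.16, software error 0.27). All 16 named probes that hold CTCTCTCTC were also above 0, with a median of 0.73 and 4 at least 2-fold higher. Across 8 scalings and corrections, the main one included, the median of these named probes stayed between 0.56 and 0.75, with 1 to 4 of them 2-fold higher, and that of the 3 members between 0.25 and 0.79. The brightest of the 3 members, A_64_P010976 on the reverse strand of chr3:147287563-147287622, read 6908 and 12482, with 25 pyrimidines in a row in capitals.
A_64_P010976: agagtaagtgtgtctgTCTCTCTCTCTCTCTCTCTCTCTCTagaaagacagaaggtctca

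The G and C share separated the members far less than the purine share. Members with under 40% G and C had a median difference of 0.11 and those with 55% or more of 0.02, with 44 of 463 and 21 of 602 being 2-fold lower. Among named probes in these bands 140 of 5482 and 83 of 3127 were 2-fold lower. Across the 2617 members, which share both arrays, the difference correlated at 0.03 with the G and C share and at -0.25 with the purine share. The G and C share correlated at -0.11 with the mean log2 signal, and at -0.13 in named probes. The polyadenylation signal AATAAA, searched in the sense direction, was in 9.02% of the members, 9.32% of the named probes and 8.39% of all probes. Its complement TTTATT was in 1.22% of members and 3.29% of named probes. Members with AATAAA had a median difference of 0.11, with 9 lower and none higher.

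Lower members were more frequent in unplaced sequence than on assembled chromosomes. The 2419 members on assembled chromosomes had a median of 0.04, with 12 higher and 124 lower (5.13%). The 148 members on chromosome Un, the collection of contigs without a chromosome, had a median of -0.13 and 26 lower (17.6%), and the 50 on random contigs, which are assigned to a chromosome but not placed in it, had 8 lower (16.0%). Named probes had a median of -0.06 on Un (226 probes) and of -0.01 on random contigs (161 probes), against 0.01 over all named probes. Over all 23322 probes measured on both arrays 3.18% were lower, but the share among named probes on Un or random contigs was not counted. Whether lower values there are particular to members was therefore not tested. The count of lower members on Un depended on the correction of the values: across the 8 settings above it ranged from 11 to 26, and their median from -0.15 to -0.10. Only 2 of those on Un held GAAGAAGAA, and without them 24 of 146 (16.4%) were lower. Chromosomes 12 and 19, with 52 and 56 members, had none past 2-fold, and the 142 members on X had a median of 0.08 with 3 lower. Members on the forward and the reverse strand had medians of 0.03 and 0.04.

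The largest deficit of any member was on Un. A_64_P111725 read 640 and 71.7, 9.41-fold lower (-3.23, and -2.42 with normexp). Its nearest measured named probe lay 243607 bases away. A_64_P082166, also on Un, read 114 and 16.4 (-2.87, and -1.33 with normexp), and A_64_P077069, on chr3:162934745-162934804, read 471 and 90.3 (-2.46). The last lies 20550 bases from Cbln4, a secreted synapse organiser, on the same strand, which was at -0.52. None of these 3 members held a purine run of more than 6 bases.

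Several bright lower members were likewise not purine-rich. A_64_P033230 on Un read 22314 and 9262 (-1.34) with 55% purines, and A_64_P148432 on chr3:6770098-6770157 read 8165 and 2785 (-1.63) with 65%. A_64_P077094 on chr5:171786321-171786380 read 4474 and 2080 (-1.18) with 43.3%, and A_64_P138944 on Un read 1033 and 264 (-2.04) with 46.7%. Of the 43 lower members of at least median signal, 22 held GAAGAAGAA.

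Few members were higher in the dexamethasone array. A_64_P121361 on chr16 read 128 and 612, 4.53-fold higher (2.18, and 1.86 with normexp). The nearest measured named probe, 25079 bases away on the same strand, was that of Msmo1, an enzyme of cholesterol synthesis, at -0.08. A_44_P184909 on chr13:19108392-19108451 read 49.5 and 162 (1.63). A_64_P126395 on chr4 read 295 and 754 (1.28, software error 0.20). Of the 13 higher members, these 3 were also at least 2-fold higher with normexp.

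Below 2-fold, the next members of at least median signal were A_64_P005336 at 0.94 (260 and 528, on the reverse strand of chr4:25033627-25033686) and A_64_P029607 at 0.83. The latter, on chr20:28226064-28226123, was bright, at 31231 and 58366. The rest of the 10 highest lay between 0.60 and 0.81. Their nearest measured named probes lay from 1403 to 587408 bases away.

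Members within 1000 bases of a named probe on the same strand tended to have a like difference, and those further off did so less. A measured named probe on the same chromosome was found for 2615 members, at a median gap of 50931 bases. For 550 (21.0%) it lay within 10 kb, and in 394 of these (71.6%) on the same strand. Member and neighbour had the same sign in 329 of the 550 pairs (59.8%, exact 95% binomial interval 55.6% to 63.9%, which covers counting over pairs only).

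The likeness varied with distance. At a gap of 1 to 1000 bases on the same strand, the differences of member and neighbour correlated at 0.51 over 175 pairs, and beyond that, up to 10000 bases, at 0.08 over 195 pairs. Further out, up to 100 kb, it was 0.17 over 558 same-strand pairs. On the other strand it was 0.52 over only 10 pairs within 1000 bases, 8 of them of the same sign, and 0.04 over 143 pairs beyond that, up to 10000 bases. All pairs share the same 2 arrays, and some share a neighbour. Neighbouring named probes of different genes correlated at 0.56 on the same strand within 1000 bases (312 pairs) and at 0.10 on the other strand (697 pairs). Probes of a single gene at that distance correlated at 0.78 (1878 pairs).

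Most close members lay downstream of their neighbour. Of the 175 same-strand members within 1000 bases, 125 were downstream and 50 upstream of the named probe. The downstream pairs had the same sign in 91 cases (72.8%) with a correlation of 0.48, and the upstream pairs in 28 cases (56.0%) with a correlation of 0.68.

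Several of these pairs showed like values for a gene and the unnamed transcript beside it. A_64_P031058 on chr1:222502509-222502568, 318 bases downstream of the probe of Trpm6, a magnesium channel, read 442 and 209 (-1.15), and Trpm6 was at -0.99. A_64_P153085 on chr14:62631665-62631724, 792 bases downstream of Sel1l3, read 4380 and 2644 (-0.80), and Sel1l3 was at -0.53. A_64_P152919 on chr4:88376356-88376415, 90 bases downstream of Gprin3, read 143 and 241 (0.68), and Gprin3 was at 0.57. A_64_P056841 on chrX:102600908-102600967, 276 bases downstream of Dach2, a transcription cofactor, was at -0.69, and Dach2 at -0.71.

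Other close pairs did not. A_64_P070826, 906 bases downstream of Neto1, an auxiliary subunit of glutamate receptors, read 12785 and 14910 (0.15), while Neto1 read 685 and 2842 (1.98). A_64_P091016 on chr3:149496547-149496606, 311 bases downstream of Ppp1r16b, a regulatory subunit of protein phosphatase, was at 0.42 against 1.14. A_64_P135077, 5 bases from the probe of ENSRNOT00000060225, was at -1.84, while that probe read 37495 and 45019 (0.19). These close pairs were chosen after their values were seen.

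In 4 same-strand pairs within 10 kb, both the member and its named neighbour were at least 2-fold apart. A_64_P126395 (1.28) lay 5689 bases downstream of the probe of ENSRNOT00000056975, which read 654 and 1724 (1.32). A_64_P006255 on chr3:986077-986136 read 67.8 and 23.5 (-1.60), and ENSRNOT00000031380, 77 bases away, was at -1.27 and at -1.93 on its other probe. A_64_P105797 on chr7:929252-929311 read 77.2 and 36.1 (-1.17) beside LOC685371 at -2.12, whose probe held GAAGAAGAA. The member, with 85% A and G, shares at least 30 bases in the same sense with that probe. Their values are therefore not separate reads of this place. With normexp A_64_P006255 and A_64_P105797 were at -0.71 and -0.57.

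The fourth pair had opposite signs. A_64_P010139, at chr18:56903621-56903680, lies within the stretch spanned by a probe of Camk2a, the alpha subunit of the calcium/calmodulin-dependent kinase abundant in forebrain neurons. It read 85.7 and 34.3 (-1.40, and -0.68 with normexp), while Camk2a read 291 and 616 (1.01). The Camk2a probe is listed over 14646 bases of genome, and the probes share at most 6 bases in a row. On opposite strands, 3 pairs within 10 kb were both past 2-fold. A_64_P110674 on chr4:31768602-31768661 read 55.8 and 135 (1.20), and Dlx5, a homeobox gene of forebrain interneurons 9940 bases away, read 142 and 428 (1.52). A_64_P106553 was at -1.10 beside Pla2r1, a phospholipase receptor, at -1.14, and A_64_P084450 at -1.06 beside RGD1564127 at 1.20, of opposite sign. With normexp these 3 members were at 0.66, -0.68 and -0.35, all within 2-fold.

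Overlapping probes gave similar values. Of 24 members that overlap a named probe on the same strand, 22 overlap a probe listed without a gap, and in these the differences lay apart by a median of 0.12, with 20 pairs within 0.5. Among members themselves, 66 same-strand pairs lay within 1000 bases, and their differences correlated at 0.68 with a median separation of 0.096.

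An overlapping pair of members on the reverse strand of chromosome 16 is shown as an example.
A_64_P014722, chr16:34250298-34250357: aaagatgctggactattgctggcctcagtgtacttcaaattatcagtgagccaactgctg
A_44_P443138, chr16:34250309-34250368: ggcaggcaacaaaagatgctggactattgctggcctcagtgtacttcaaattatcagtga

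A_64_P014722 read 2619 and 2699 (-0.03), and A_44_P443138 read 2680 and 2757 (-0.03). Another member of the cluster, A_64_P014724, read 1870 and 2075 (0.07). Only 1 member was spotted 10 times, A_44_P503868 on chr2:222439878-222439937. It read 5868 and 6183, a difference of -0.00 with a software error of 0.06.

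Members seldom clustered. With a limit of 10 kb between neighbours there were 8 runs of at least 3 members, with 25 members in all, and 104 runs of 2. The longest, 4 members over 20.1 kb of Un, held differences of -0.10, -0.13, -2.52 and -0.51, and A_64_P108125, at -2.52, was at -0.93 with normexp. A run of 3 on chr14 over 1.17 kb lay within 10 kb of Rpl5, a ribosomal protein gene, with differences from -0.29 to -0.03, while Rpl5 was at 0.30 on the other strand. Apart from A_64_P108125, no member of the 5 longest runs passed 2-fold.

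The 5 brightest members had differences of -0.17 to -0.02, and which RNA they read was not tested. A_64_P016928 read 364411 and 345153 (-0.15), and A_64_P105254 read 353407 and 331410 (-0.17). A_64_P146294, A_64_P065962 and A_64_P098109 followed, with control signals of 307538, 275137 and 272871 and differences of -0.02, -0.05 and -0.06. These 5 members fall into a pair and a trio by sequence although they were placed on 5 different chromosomes, Un among them. Capitals below mark AATAAA.
A_64_P016928, chr7:956319-956378: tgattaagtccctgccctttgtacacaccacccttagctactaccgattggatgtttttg
A_64_P105254, chrUn:17542349-17542408: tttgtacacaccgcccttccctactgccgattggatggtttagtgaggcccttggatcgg
A_64_P065962, chr2:3773318-3773377: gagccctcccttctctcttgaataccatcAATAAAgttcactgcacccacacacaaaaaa
A_64_P098109, chr8:116983220-116983279: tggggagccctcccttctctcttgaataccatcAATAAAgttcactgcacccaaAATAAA

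The last 2 shown share a stretch of 49 bases and the first 2 one of 12, and A_64_P146294 shares 27 and 29 bases in a row with the last 2.

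Sequence shared with named genes was found in a minority of members and carried the same values. With a named probe, 136 members shared at least 30 bases in the same sense. In 199 pairs measured on both arrays the differences correlated at 0.91, with a median separation of 0.043, and in 42 of these pairs both probes were placed on the same chromosome. No member shared 30 bases with any of 419 rat miRNA hairpins in RefSeq.

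Some members read promoter regions. RefSeq windows of 300 bases around gene starts on the GRCr8 assembly, 33469 in all, contained 83 members whole (3.17%) and 0.345% of the named probes. Of the 83 members, 40 matched in the sense of the gene and 46 in the opposite sense, 3 of them in both. They were dim, with a median control signal of 65.4, and 2 were 2-fold lower and none higher. In 25 pairs of a sense match and its gene the differences correlated at 0.17, and in 33 pairs of opposite sense at -0.26, over the same 2 arrays.

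Some of these transcripts had a difference like that of the gene whose start they share, and some did not. A_64_P049146, on the forward strand of chr1:140159436-140159495, matched the promoter window of Tlnrd1, a talin-related gene, in the opposite sense. It read 2078 and 3834 (0.81), while Tlnrd1 read 201 and 154 (-0.46).
A_64_P049146: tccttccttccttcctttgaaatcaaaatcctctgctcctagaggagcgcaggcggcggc

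A_64_P071277, opposite to Fhip1b, read 170263 and 174445 (-0.04), the brightest of the 83 members, and Fhip1b was at 0.02. A_64_P118212, in the sense of Stam, an endosomal sorting adaptor, read 47.5 and 18.0 (-1.47) while Stam was at 0.06. A_64_P067643, in the sense of Skil, a repressor of TGF-beta signalling, was at 0.73 and Skil at 0.70. These 4 members were chosen after their values were seen.

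Markers of neighbouring brain regions differed between the arrays as well. Of 7 paraventricular markers 6 were measured, Otp not being among them, with a median of -0.28. Avp, which encodes vasopressin, was at -1.91, Oxt, which encodes oxytocin, at -1.38 and Crh, which encodes corticotropin-releasing hormone, at 1.39. Of 7 cortex and striatum markers 6 were measured, all above 0 with a median of 4.36 and a range of 0.68 to 6.20. All 5 thalamus markers were below 0, from -1.19 to -0.74. The 2 measured blood markers had a median of 1.48, while the medians of astrocyte, oligodendrocyte, microglia, endothelium and choroid plexus lists lay between -0.19 and 0.27. The part of these marker differences in the members' values was not tested.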

How the data were processed

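RNA of 2 groups, 1 array each, was hybridised to 1-colour rat arrays. The deposited values used are linear spot intensity, quantified with Feature Extraction 10.7.1.1 per the file headers (9.5.1.1 per the submitters' processing notes). The software had subtracted background from the deposited processed intensity. Positions are rn4, per the file headers. Log2 processed intensities were averaged over spots without an outlier mark, and each array's 75th percentile over all 30367 probes (1404 and 1480) was subtracted. Signals in the text are unscaled. Neighbours were the nearest measured named probes. Gene names were updated through RefSeq (GRCr8, 18386 probes by accession, 2475 by symbol, 538 by older symbol); 4793 kept the file's name. Promoter windows and miRNA hairpins are RefSeq's, used for sequence alone.

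Members to name were the 10 highest and 10 lowest of at least median signal with 1 sign under normexp and quantile normalization, the 5 brightest, those spotted repeatedly, the 5 longest runs, and same-strand pairs within 10 kb both past 2-fold. Of the 10 lowest, 8 are described and the others are not reported here. Others were picked with their values in view. The members and lists were chosen with earlier results of these data known. Each array occupied its own place on 1 shared slide, and place and group cannot be told apart. The number of arrays limits the precision. The procedure was tested on simulated data. Tools were R 4.3.3 with limma 3.58.1 and Python 3.11.15 with pandas 2.3.3.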

Additional observations from a re-analysis of the deposited data

How the results depend on the processing

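At 2-fold, 13 members were higher and 158 lower (171 in all). The counts were 3, 65 and 68 with normexp (offset 50), 2, 65 and 67 without background subtraction, 1, 43 and 44 among members of at least median signal, 137, 330 and 467 without the filter on dim probes, 68, 257 and 325 with the software's milder detection mark, 72, 280 and 352 at 1.5-fold, and 1, 36 and 37 at 4-fold. Without members of 70% or more A and G 104 were lower. More members were lower than higher under every alternative run. The median member difference of 0.04 was -0.011 without background subtraction and 0.10 among members of at least median signal. With normexp it was -0.0035. The named probes' median went from 0.01 to -0.016 with normexp, and their counts from 608 higher and 574 lower to 1241 and 1255 without the filter on dim probes. Quantile and cyclic loess normalization, scaling by the median of measured probes, the deposited value table, keeping outlier spots and merging members within 1000 bases gave 12 to 15 higher and 147 to 159 lower. Below a log2 signal of 6 the error between repeated spots, 0.21, limits what a single-spot difference can show. No paired analysis was possible because each group has 1 array.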

Other observations

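Unnamed positioned probes that were well above background on 1 array alone belong to no comparison above, and their difference is only a bound. It sets the scaled value on the array that detected the probe against a floor on the other, which is the lowest detected signal there or the probe's own, whichever was larger. Of 179 such probes in the control array 23 had a bound of at least 2-fold, the largest at least 5.34-fold for A_64_P060375 (chr14:49184739-49184798), with a control signal of 38.5 against 7.60. Of 60 in the dexamethasone array 13 had one, the largest at least 11.2-fold for A_64_P050318 (chr3:140098611-140098670), with signals of 1.35 and 69.1. Unnamed probes listed without a position had, over 103 measured on both arrays, a median difference of -0.09, with 9 at least 2-fold lower and 1 higher.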
